A study of Mus musculus with 4 samples.

Results

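The genes of the Myc network were followed in 3 mouse cell lines that had been profiled as single cells. The 10 members were chosen by symbol from the 33565 genes of the count matrices. They were the activators Myc, Mycn and Mycl, their partner Max, the antagonists Mxd1, Mxi1, Mxd3, Mxd4 and Mnt, and the Max-like protein Mlx. All 10 were listed in every matrix, and all values came from cells that held 1000 UMIs or more, of which no more than 20% were mitochondrial.

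The lines were N2a (Neuro-2a), a mouse neuroblastoma line, NIH/3T3, an embryonic fibroblast line, and E14TG2a mouse embryonic stem cells, here called mESCs. N2a and NIH/3T3 cells were kept in DMEM with 10% fetal bovine serum. The mESCs were kept on gelatin in DMEM with 15% fetal bovine serum, 1000 U/ml leukemia inhibitory factor (LIF), 3 µM CHIR99021, which inhibits the kinase GSK3, and 1 µM PD0325901, which inhibits the kinase MEK. The lines were barcoded on 1 plate with the split-pool method CapSeq and sequenced in 1 library, so there was 1 sample per line and no test between lines was made. Each line is also a single established line, and the medium of the mESCs differed from that of the other lines, so cell type and medium cannot be told apart.

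Proteins of this network carry a basic helix-loop-helix leucine zipper domain and bind DNA in pairs. Myc, N-Myc and L-Myc pair with Max and activate transcription at E-boxes, whose canonical form reads CACGTG. The Mxd proteins and Mnt also pair with Max, bind the same sites and recruit Sin3 corepressors, while Mlx pairs with the sugar-responsive factors Mlxip and Mlxipl and with some antagonists. Myc is known for its part in growth and ribosome biogenesis, Mycn for neural crest tumors and for embryonic stem cells, and the Mxd genes for cells that leave the cycle.

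The canonical E-box was searched in the promoters of the members themselves. Promoter windows of 300 bases, from 250 bases before to 50 bases after the start site, were taken from RefSeq on GRCm38.p6 and held 9 of the 10 members with 11 windows. CACGTG, which reads the same on both strands, was present in the windows of 4 of the 9 genes, against 2187 of all 27025 genes (8.09%). The 4 stretches are shown because they hold the letters to which the members' own proteins are known to bind. The capitals mark the E-box, and each stretch of 60 bases is given 5′ to 3′ on the strand of its gene.
Max: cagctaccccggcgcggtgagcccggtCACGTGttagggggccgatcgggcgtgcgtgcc
Mxd4: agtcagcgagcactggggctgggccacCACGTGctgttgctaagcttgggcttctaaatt
Mnt: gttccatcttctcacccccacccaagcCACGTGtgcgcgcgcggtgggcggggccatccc
Mlx: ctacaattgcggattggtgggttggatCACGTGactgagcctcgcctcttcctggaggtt

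The stretch of Max lay at chr12:76962219-76962278 on the minus strand, with the first base of the E-box at position -3 from the start site. That of Mxd4 lay at chr5:34187897-34187956 on the minus strand, with the E-box at -219. Both were read from the strand of their gene. On the plus strand, the stretch of Mnt lay at chr11:74830774-74830833 with the E-box at -123, and that of Mlx at chr11:101087223-101087282 with the E-box at -40. These letters are a description of the windows, and binding was not measured.

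The 3 lines were sequenced to similar but unequal depth. After filtering there were 2323 N2a cells with 17955221 UMIs, 2037 NIH/3T3 cells with 11697865 UMIs, and 2137 mESCs with 12322098 UMIs, with a median of 6185, 4863 and 4803 UMIs per cell. Levels are CPM, the UMIs of a gene summed over the cells of a line and scaled to a total of 1000000. Intervals in parentheses after a level are exact Poisson intervals at the 95% level, those of a ratio of 2 levels are exact conditional intervals, and both cover counting error only. The 3 matrices shared 0 barcodes with UMIs. The marker genes fitted the labels, with 5 of 6 N2a markers, 5 of 6 NIH/3T3 markers and 6 of 6 mESC markers highest in their own line, and the exceptions highest in mESCs. The summed mESC markers in N2a and NIH/3T3 stood at 0.262% and 0.359% of their level in mESCs, an upper value for RNA of mESCs counted in the other lines.

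The dominant Myc paralog differed between the lines. Myc, located on GRCm39 at chr15:61857227-61862223, was the main paralog in N2a and NIH/3T3, and Mycn, at chr12:12986076-12992915, was the main paralog in mESCs. Mycl, at chr4:122889408-122896282, was found almost only in mESCs. Of the UMIs of the 3 paralogs, Myc held 90.7% in N2a (1086 of 1197, 95% exact binomial interval 88.9% to 92.3%) and 99.9% in NIH/3T3 (874 of 875), but 6.08% in mESCs (51 of 839, 4.56% to 7.92%). Mycn held 85.0% in mESCs (82.4% to 87.3%). When UMIs were divided by the length of the longest annotated transcript, the share of Myc was 93.3% in N2a, 99.9% for NIH/3T3 and 8.55% for mESCs, so the dominant paralog of each line was the one found without the division.

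The level of Myc was 60.5 CPM in N2a (56.9 to 64.2), 74.7 CPM in NIH/3T3 (69.8 to 79.8) and 4.14 CPM in mESCs (3.08 to 5.44). It was thus high in N2a and NIH/3T3 and low in mESCs, 18.1-fold lower than in NIH/3T3 (13.6 to 24.4) and 14.6-fold lower than in N2a (11.03 to 19.8). The difference between NIH/3T3 and N2a was 1.24-fold (1.13 to 1.35).

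Mycn showed the inverse order, with 57.9 CPM in mESCs (53.7 to 62.3), 6.01 CPM in N2a (4.93 to 7.26) and 0.0855 CPM in NIH/3T3, where a single UMI was counted (0.00216 to 0.476). The level in mESCs was 9.62-fold that in N2a (7.85 to 11.9). The single UMI in NIH/3T3 corresponded to 0.148% of the level in mESCs, beside 0.359% for the summed mESC markers in NIH/3T3. A single UMI cannot separate background from low expression. In N2a, by contrast, Mycn reached 10.4% of its mESC level while mESC markers stood at 0.262%. The 99 N2a cells with a Mycn UMI held mESC markers at 8.62 CPM (10 UMIs), against 12.3 CPM (206 UMIs) in the other 2224 N2a cells. The former value rests on few UMIs, and the difference was not tested.

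Mycl was counted at 6.09 CPM in mESCs (75 UMIs, 4.79 to 7.63), at 0.167 CPM in N2a (3 UMIs) and at 0 CPM in NIH/3T3. A count of 0 allows up to 3 counts, which is 0.256 CPM in NIH/3T3. Against this floor, Mycl was at least 23.7-fold higher in mESCs than in NIH/3T3, and the lower limit of the exact interval of the ratio was 18.8. It was 36.4-fold higher than in N2a (12.0 to 181). The low levels in N2a and NIH/3T3 did not differ beyond counting error.

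**Figure D1:**
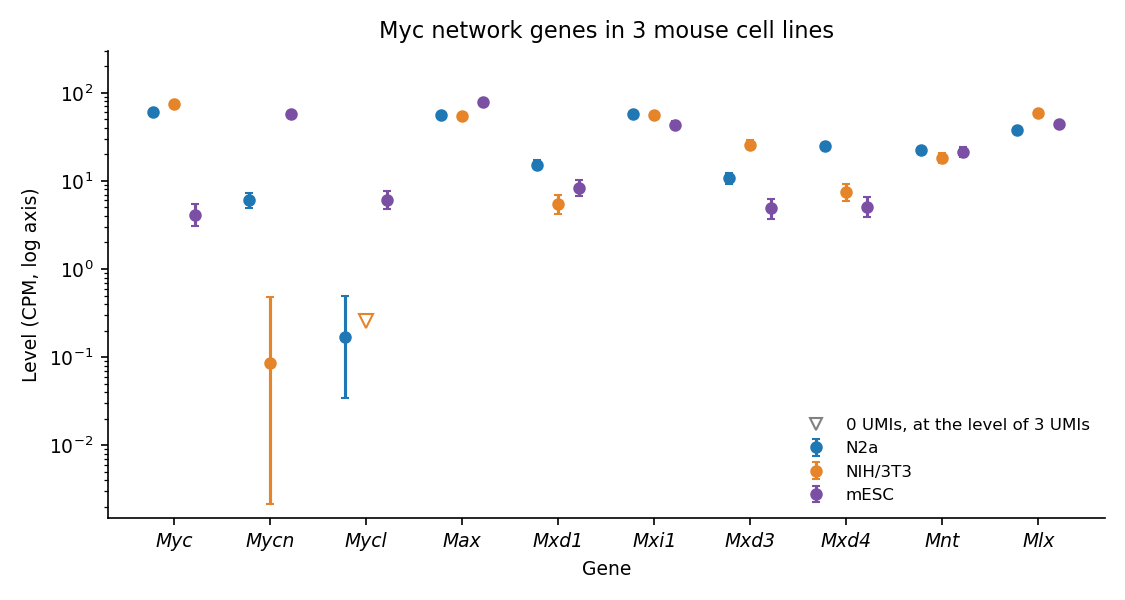
Levels of the 10 members in CPM on a log axis, with 1 point per line and vertical bars for the 95% exact Poisson interval. The open triangle marks 0 UMIs of Mycl in NIH/3T3 and is drawn at the level of 3 UMIs, 0.256 CPM. Myc and Mycn change places between mESCs and the other lines, while Max, Mxi1, Mnt and Mlx differ by at most 1.57-fold between lines.

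The dominant paralog of each line was the same at every aliquot of its culture. Each line was spread over 32 BC1 sequences, the barcodes of the opening round, which are aliquots of 1 culture and not replicates. Myc exceeded Mycn at 32 of 32 BC1 sequences in N2a and at 32 of 32 in NIH/3T3, and Mycn exceeded Myc at 32 of 32 in mESCs. Myc had a median of 59.3 CPM over the aliquots of N2a (lowest 43.4, highest 96.8), of 72.3 CPM over those of NIH/3T3 (lowest 25.1, highest 114) and of 3.30 CPM over those of mESCs (lowest 0, highest 13.2). The ranges of Myc in N2a and NIH/3T3 overlapped, and the highest mESC aliquot lay below the lowest aliquot of the other lines. Mycn ranged from 30.8 to 86.7 CPM in mESCs, and its highest value elsewhere was 15.3 CPM in N2a. Over the 21 combinations of member and line with at least 100 UMIs, the variance between aliquots was 0.598 to 2.30 times that expected from counting, with a median of 1.22. The highest value belonged to Mxi1 in N2a, where a single cell held 19 Mxi1 UMIs.

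**Figure D2:**
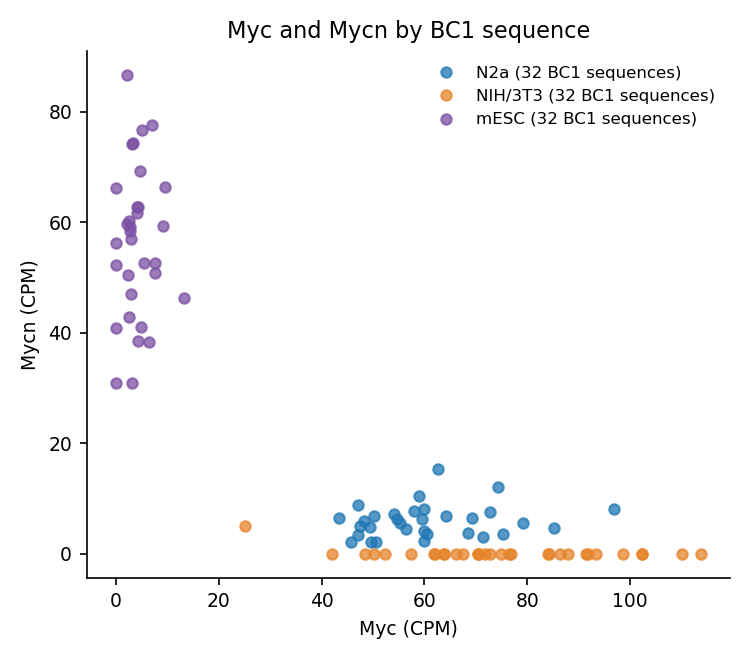
Mycn against Myc in CPM, with 1 point for each of the 32 BC1 sequences of a line. The mESC points lie at 0 to 13.2 CPM of Myc and above 30 CPM of Mycn, and the N2a and NIH/3T3 points at 25.1 CPM of Myc or more and at 15.3 CPM of Mycn or less.

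In single cells, the paralogs were counted in a minority of cells of each line. A Myc UMI was found in 31.5% of N2a cells (732 cells), in 29.7% of NIH/3T3 cells and in 2.15% of mESCs. A Mycn UMI was found in 4.26% of N2a cells, in 0.0491% of NIH/3T3 cells (1 cell) and in 24.6% of mESCs. For comparison, Zfp42, a pluripotency gene counted in 94.6% of mESCs, gave a UMI in 0.603% of N2a cells and in 0.687% of NIH/3T3 cells. Col1a2, a fibroblast collagen gene, gave a UMI in 0.515% of mESCs, and Hand2, a neuroblastoma transcription factor gene, in 0.936%. The share of mESCs with Myc and that of N2a cells with Mycn stood above the shares of these single genes. Other markers were higher outside their line. The mESC marker Dppa5a, for example, was at 5.90 CPM in N2a, near the 6.01 CPM of Mycn. With every cell thinned to 1000 UMIs, the shares were 6.50%, 6.82% and 0.515% for Myc, and 0.732%, 0% and 4.96% for Mycn, in N2a, NIH/3T3 and mESCs. Mycl gave a UMI in 0 of 2037 NIH/3T3 cells without thinning, which allows a share of cells with a UMI of up to 0.147%, by the floor of 3 counts.

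Both paralogs were found in the same N2a cells. Of the 732 N2a cells with Myc and the 99 with Mycn, 42 held both, which is 5.74% of the former and 42.4% of the latter. Cells with a Myc UMI were deeper, with a median of 9286 UMIs against 5053, so that levels and not shares are compared. The level of Mycn was 5.80 CPM in N2a cells with Myc (4.25 to 7.73) and 6.19 CPM in N2a cells without it (4.74 to 7.93), and these intervals overlapped. In mESCs, 11 cells held both, of 46 with Myc and 526 with Mycn.

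The summed level of the 3 paralogs varied less than its parts. It was 66.7 CPM in N2a (62.9 to 70.6), 74.8 CPM in NIH/3T3 (69.9 to 79.9) and 68.1 CPM in mESCs (63.6 to 72.9). The ratio of mESCs to N2a was 1.02 (0.934 to 1.12), that of mESCs to NIH/3T3 was 0.910 (0.827 to 1.002), and that of N2a to NIH/3T3 was 0.891 (0.816 to 0.974). This likeness depends on the unit, because Mycn and Mycl have longer transcripts than Myc. Per kilobase of the longest annotated transcript, the sums were 27.3, 31.5 and 20.4 CPM per kb in N2a, NIH/3T3 and mESCs, so that mESCs had 0.747 of the summed level of N2a and 0.648 of that of NIH/3T3. How the number of UMIs grows with transcript length in this method is not given in the sources used here.

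Max, the common partner, was measured at 55.9 CPM in N2a (52.5 to 59.5), 54.5 CPM in NIH/3T3 (50.3 to 58.9) and 79.0 CPM in mESCs (74.1 to 84.1). It was highest in mESCs, 1.45-fold above NIH/3T3 (1.31 to 1.61) and 1.41-fold above N2a (1.29 to 1.54), whereas N2a and NIH/3T3 did not differ beyond counting error (ratio 1.03, 0.929 to 1.14). Per kilobase of transcript, Max stood at 20.4 CPM per kb in N2a, 28.8 in mESCs and 19.9 in NIH/3T3. On this scale, Max was below the paralog sum in N2a and NIH/3T3 and above it in mESCs.

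Among the antagonists, Mxi1 had the highest level per kilobase in N2a and mESCs, and Mxd3 in NIH/3T3. Mxi1, at chr19:53298852-53364241, was measured at 57.6 CPM in N2a (54.2 to 61.3), 56.2 CPM in NIH/3T3 (52.0 to 60.6) and 43.7 CPM in mESCs (40.1 to 47.5). It was 1.32-fold lower in mESCs than in N2a (1.19 to 1.47), and N2a and NIH/3T3 did not differ beyond counting error. Per kilobase of transcript, Mxi1 stood at 11, 10.7 and 8.33 CPM per kb in N2a, NIH/3T3 and mESCs, and Mxd3 at 6.14, 14.8 and 2.80.

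Mxd1, which is known to be induced during differentiation, was measured at 15.3 CPM in N2a (13.6 to 17.2), 5.47 CPM in NIH/3T3 (4.21 to 6.99) and 8.36 CPM in mESCs (6.82 to 10.1). N2a was the high line, 2.80-fold above NIH/3T3 (2.13 to 3.74) and 1.83-fold above mESCs (1.46 to 2.32).

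Mxd4, at chr5:34331227-34345240, was also highest in N2a, with 24.8 CPM (22.6 to 27.3), against 7.44 CPM in NIH/3T3 (5.96 to 9.17) and 5.11 CPM in mESCs (3.93 to 6.54). The level in N2a was 3.34-fold that in NIH/3T3 (2.65 to 4.25) and 4.86-fold that in mESCs (3.73 to 6.43).

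Mxd3, at chr13:55472981-55477908, is the Mxd gene known for expression in S phase and in proliferating progenitors. It was highest in NIH/3T3, with 25.8 CPM (23.0 to 28.9), followed by 10.7 CPM in N2a (9.23 to 12.3) and 4.87 CPM in mESCs (3.72 to 6.27). NIH/3T3 stood 2.41-fold above N2a (2.01 to 2.91) and 5.30-fold above mESCs (4.01 to 7.12). The annotation places 1526 bases of Mxd3 opposite Prelid1, a mitochondrial lipid transfer gene. NIH/3T3 held 2739 Prelid1 UMIs, N2a 2279 and mESCs 1408, which is also the line order of the Mxd3 UMIs (302, 192 and 60). The part of Prelid1 reads in the Mxd3 counts was not tested. Whether the counting used strand is not given in the sources used here, so reads from the shared bases cannot be told apart.

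Mnt, the broadly expressed antagonist, varied least. It was measured at 22.3 CPM in N2a (20.2 to 24.6), 18.2 CPM in NIH/3T3 (15.9 to 20.8) and 21.3 CPM in mESCs (18.8 to 24.0). The ratio of N2a to NIH/3T3 was 1.22 (1.03 to 1.45), and mESCs did not differ from either line beyond counting error.

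The balance of antagonists to activators was set by comparing family sums, without and with Mnt. Mxd1, Mxi1, Mxd3 and Mxd4 together reached 108.5 CPM in N2a (103.7 to 113), 94.9 CPM in NIH/3T3 (89.4 to 101) and 62.0 CPM in mESCs (57.7 to 66.6). The Mxd sum was thus lowest in mESCs, at 0.571 of N2a (0.525 to 0.622) and 0.653 of NIH/3T3 (0.595 to 0.717). Divided by the paralog sum on the scale of transcript length, the Mxd sum gave 0.938 in N2a, 0.682 in mESCs and 0.897 in NIH/3T3. The same ratio without the length was 1.63 in N2a, 0.911 in mESCs and 1.27 in NIH/3T3, and on both scales it was highest in N2a and lowest in mESCs. With Mnt added, the sums were 131, 113 and 83.3 CPM in N2a, NIH/3T3 and mESCs, above the paralog sum in every line. Per kilobase of transcript, they were 29.8, 31.7 and 17.9 CPM per kb. On that scale they were above the paralog sum in N2a and NIH/3T3 and below it in mESCs.

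**Figure D3:**
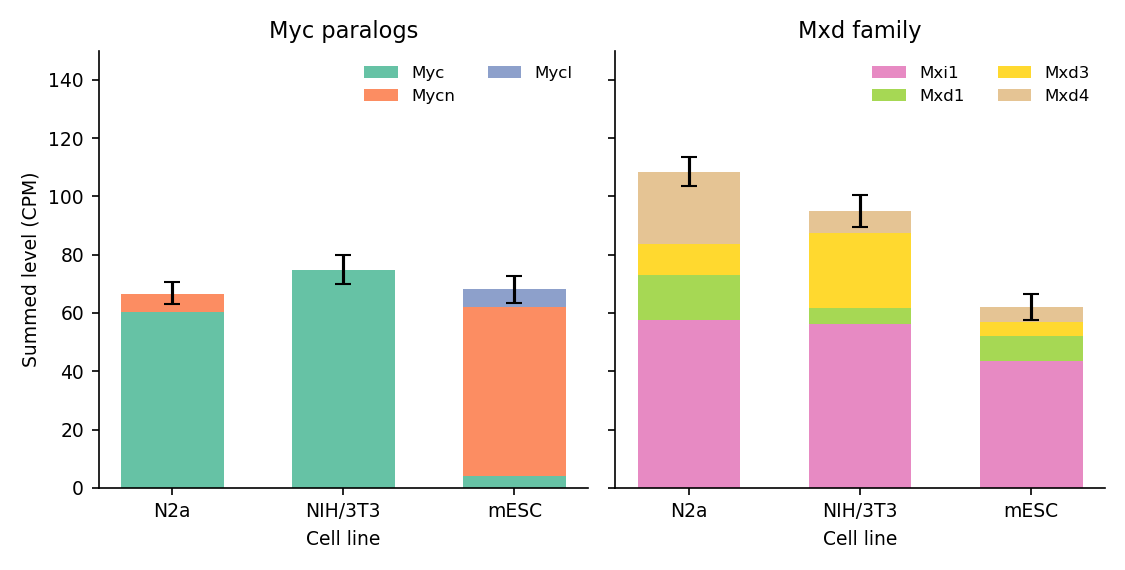
Summed levels in CPM of the Myc paralogs and of the 4 Mxd genes, stacked by gene, with 1 bar per line and black bars for the 95% exact Poisson interval of the sum. The paralog sums lie between 66.7 and 74.8 CPM with a different gene filling most of the mESC bar, and the Mxd sum is lowest in mESCs at 62.0 CPM.

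Mlx, at chr11:100978080-100983043, opens the other branch of the network. It was measured at 37.4 CPM in N2a (34.7 to 40.4), 58.9 CPM in NIH/3T3 (54.6 to 63.5) and 44.1 CPM in mESCs (40.4 to 47.9). NIH/3T3 was the high line, 1.57-fold above N2a (1.41 to 1.75) and 1.34-fold above mESCs (1.19 to 1.50). Mlx shares 1340 bases with Psmc3ip on the opposite strand, a meiotic recombination gene with 336 to 539 UMIs per line, and its reads cannot be told apart there either. Other members overlap opposite-strand long noncoding RNA genes, among them Mycl (6875 bases, Gm54255), Mycn (2979 bases, Gm59473) and Myc (101 bases, Gm62594). None of these 3 genes was in the matrices, so their levels are unknown. Mxi1 shares 15376 bases with Gm30541, which had 4 to 13 UMIs per line.

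Mlxip (MondoA), a partner of Mlx, was at 48.6 CPM in N2a, 22.3 CPM in mESCs and 46.5 CPM in NIH/3T3. Its paralog Mlxipl (ChREBP) showed the inverse, with 9.01 CPM in mESCs (111 UMIs), 0.390 CPM in N2a (7 UMIs) and 0.0855 CPM in NIH/3T3 (1 UMI). The partners of Mlx thus also differed in opposite directions in mESCs, with Mlxip 2.18-fold lower (1.90 to 2.50) and Mlxipl 23.1-fold higher (10.9 to 58.8) than in N2a. Mga, a large Max partner of a noncanonical Polycomb complex that represses germ cell genes in mESCs, was at 216 CPM in N2a, 441 CPM in mESCs and 125 CPM in NIH/3T3. Its level in mESCs was 3.53-fold that in NIH/3T3 (3.33 to 3.74) and 2.05-fold that in N2a (1.96 to 2.13).

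The members were then read against all genes. A gene entered if it had at least 5 CPM in either line, and was counted if the ratio of CPM + 1 was at least 2, a scale on which the change of low genes is understated. Between N2a and NIH/3T3, 9 members entered, all but Mycl. Of these, Mycn, Mxd1 and Mxd4 were higher in N2a (3 of 9, against 20% of 11812 genes), and Mxd3 was lower (1 of 9, against 18.5%). Between mESCs and NIH/3T3, all 10 entered, with Mycn and Mycl higher (2 of 10, against 22.8% of 12067 genes) and Myc and Mxd3 lower (2 of 10, against 21.7%). Between mESCs and N2a, Mycn and Mycl were higher (2 of 10, against 21% of 12245 genes) and Myc and Mxd4 were lower (2 of 10, against 22.3%). Mxd3 was 2.20-fold lower in mESCs than in N2a (1.64 to 2.99) in CPM but did not reach 2-fold in CPM + 1. The members' counts were thus near the background in both comparisons of mESCs. The comparisons share lines and are not independent.

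Mxd3 and Mxd4 differed with the G2/M share of the cells within each line, in opposite directions. Cells of a line were ranked by the share of their UMIs in 38 G2/M genes, none of them a member, and split into 3 groups of equal size, here called terciles, which are ranges of a score and not cell types. The level of Mxd3 was higher from each tercile to the next in every line. In N2a, its level was 3.59 CPM in the lowest tercile (2.193 to 5.54), 10.5 CPM in the middle and 16.9 CPM in the highest (13.9 to 20.4). In NIH/3T3, it was 10.9 CPM in the lowest (7.76 to 14.9), 26.1 CPM in the middle and 38.1 CPM in the highest (32.5 to 44.4). The levels in mESCs were 2.76 CPM (1.32 to 5.07), 4.03 CPM and 7.38 CPM (5.08 to 10.4). The intervals of the lowest and the highest tercile did not overlap in N2a and NIH/3T3, and met at 5.07 and 5.08 CPM without overlap in mESCs. The ratio of the highest to the lowest tercile was 4.71 (2.91 to 8.02) for N2a, 3.49 (2.45 to 5.09) for NIH/3T3 and 2.68 (1.29 to 6.09) for mESCs. Prelid1, which overlaps Mxd3, did not share this pattern, and its ratio was 0.903 (0.816 to 0.998) for N2a, 0.872 (0.795 to 0.956) for NIH/3T3 and 0.931 (0.815 to 1.06) for mESCs.

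Mxd4 ran the other way. In N2a, its level was 43.3 CPM in the lowest tercile (38.0 to 49.1), 16.7 CPM in the middle and 16.5 CPM in the highest (13.5 to 19.9). In NIH/3T3 the levels were 12.0 CPM (8.71 to 16.2), 5.68 CPM and 5.17 CPM (3.24 to 7.83), and in mESCs 7.44 CPM (4.90 to 10.8), 4.74 CPM and 3.58 CPM (2.04 to 5.81). In N2a and NIH/3T3, the lowest tercile stood apart and the others were alike. The lowest tercile exceeded the highest 2.63-fold in N2a (2.09 to 3.33), 2.33-fold in NIH/3T3 (1.36 to 4.08) and 2.08-fold in mESCs (1.08 to 4.13). Cells of the highest tercile were somewhat deeper, with medians of 6781.5, 5196 and 5061 UMIs against 5672, 4494 and 4350 in the lowest, in N2a, NIH/3T3 and mESCs. With each cell thinned to 1000 UMIs, the ratio of the highest to the lowest tercile for Mxd3 was 3.50 in N2a, 6.01 in mESCs and 2.0 in NIH/3T3. For Mxd4 it was 0.270 in N2a, 0.200 in mESCs and 0.667 in NIH/3T3. The direction was the same in all 6 thinned ratios. Their size moved by over 1.5 times for both genes in NIH/3T3 and in mESCs. Few thinned cells held a UMI, with 9 mESCs for Mxd3, and 12 mESCs and 11 NIH/3T3 cells for Mxd4. The thinned ratios rest on few UMIs and have no interval, so no conclusion on depth is drawn from them.

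Between the extreme terciles, Mxd3 was the 1 member at least 2-fold higher in CPM + 1 in each line, where 1.84% of all genes tested were so among cells of N2a, 2.18% among NIH/3T3 and 0.932% among mESCs. Mxd4 was the 1 member at least 2-fold lower in N2a and NIH/3T3, where 0.382% and 0.796% of genes were so. In mESCs, 0 of 9 members were at least 2-fold lower, against 0.416% of genes. Myc moved less than Mxd3 and Mxd4 along the same ranking. It was 1.24-fold higher in the highest tercile of N2a (1.07 to 1.44) and 1.19-fold lower in that of NIH/3T3 (1.01 to 1.41). Mycn was 1.27-fold higher in the highest tercile of mESCs (1.06 to 1.54) but 1.63-fold lower in that of N2a (1.02 to 2.61).

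**Figure D4:**
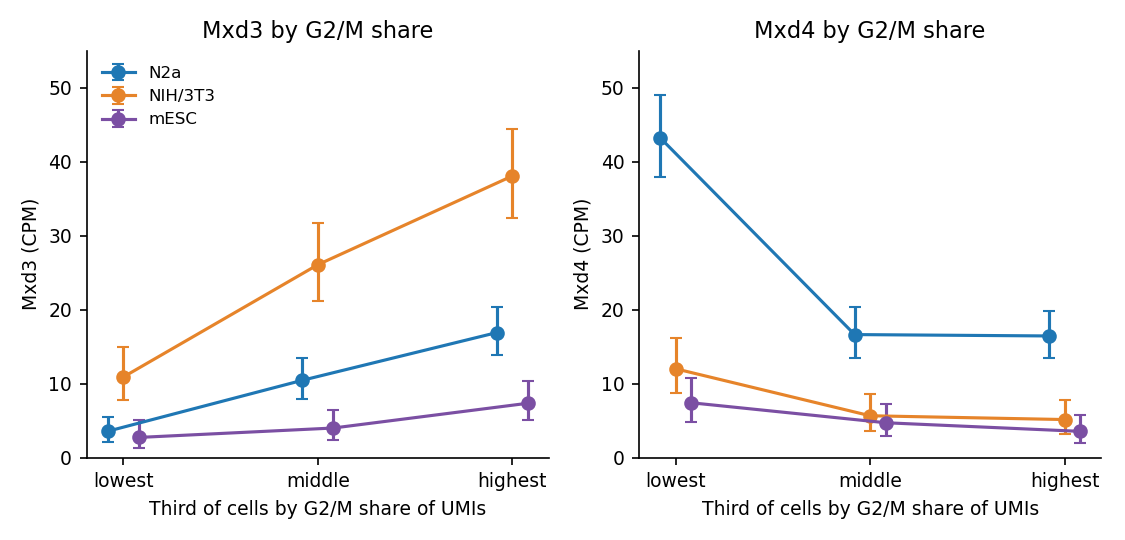
Levels of Mxd3 and Mxd4 in CPM in the lowest, middle and highest group of cells by the share of UMIs in G2/M genes, with 1 line of points per cell line and bars for the 95% exact Poisson interval. Mxd3 increases to 16.9, 38.1 and 7.38 CPM in N2a, NIH/3T3 and mESCs, and Mxd4 is highest in the lowest group, at 43.3 CPM in N2a.

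Genes known to be activated by Myc were mostly less than 2-fold apart between the 3 lines. Of 31 target genes, mainly of ribosome biogenesis and nucleotide metabolism, 0 were at least 2-fold higher in CPM + 1 and 1 was lower in mESCs than in NIH/3T3, although Myc itself was 18.1-fold lower there. The lower gene was Ldha, lactate dehydrogenase, with 264 CPM in mESCs and 563 CPM in NIH/3T3. The median log2 ratio of the 31 genes was 0.02, and that of all genes tested was -0.01. Between N2a and NIH/3T3, 0 were higher and 1 was lower, the transferrin receptor gene Tfrc with 213 and 449 CPM, and the median log2 ratio was -0.17 against 0.04 for all genes. Between mESCs and N2a, 1 was higher, Rrp9 of the U3 snoRNP, with 72.3 CPM in mESCs, and 0 were lower, with a median of 0.14 against -0.05. In each direction, 0 or 1 of the 31 genes was 2-fold apart, beside 18.5% to 22.8% of all genes. Smaller differences were present. The ratio was above 1 for 9 of 31 in N2a over NIH/3T3, against 6097 of 11812 genes. It was above 1 for 21 of 31 in mESCs over N2a, against 5899 of 12245. For mESCs over NIH/3T3 the counts were 16 of 31 and 5985 of 12067. The list held no gene below 23.8 CPM in any line, whereas all genes from 5 CPM in either line were tested. Fbl, the nucleolar methyltransferase fibrillarin, was at 225 CPM in N2a, 239 CPM in mESCs and 154 CPM in NIH/3T3. CACGTG was present in the promoter windows of 8 of the 26 target genes that had a window (30.8%), against 8.09% of all genes. The genes were listed as known Myc targets, so this share is a description and no test.

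**Figure D5:**
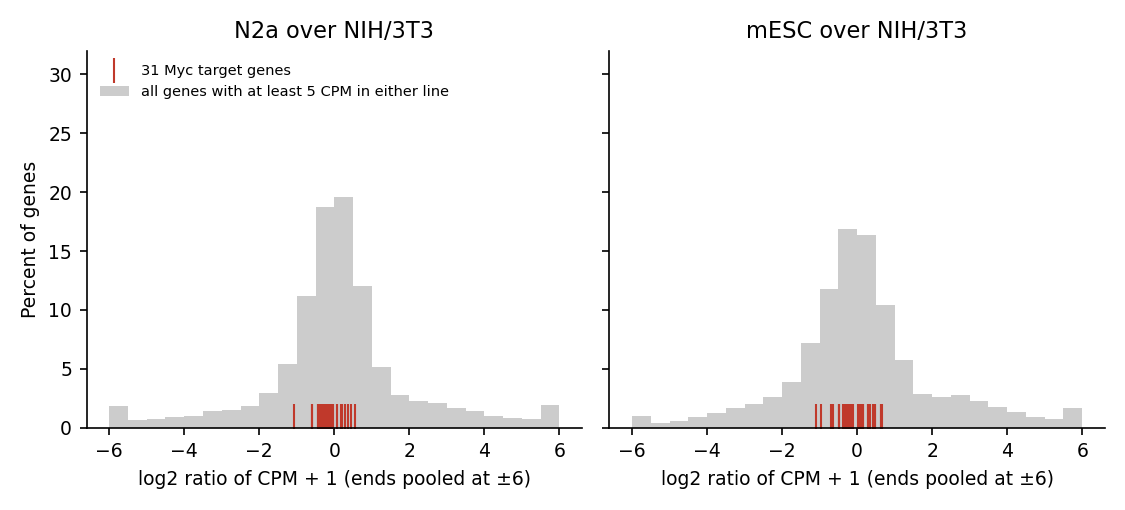
Log2 ratios of CPM + 1 of the 31 Myc target genes (red ticks) over the distribution of all genes with at least 5 CPM in either line (grey bars, percent of genes), for N2a over NIH/3T3 and mESC over NIH/3T3. The ticks gather around 0, with medians of -0.17 and 0.02.

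The proteins that work with the network were counted as lists. Of 12 Myc cofactors, 0 were at least 2-fold apart between N2a and NIH/3T3, where 20% of all genes were higher and 18.5% lower. In mESCs, 3 were higher than in NIH/3T3 (25.0%, near the 22.8% of all genes) and 0 were lower, against 21.7% of all genes. Wdr5, a chromatin adaptor that binds Myc, was at 58.1 CPM in N2a, 199.97 CPM in mESCs and 47.4 CPM in NIH/3T3, and Cdk9, the elongation kinase, was at 29.6 CPM in N2a, 60.7 CPM in mESCs and 26.2 CPM in NIH/3T3. Of 9 Sin3 and NCoR corepressor genes, 3 were higher in mESCs than in NIH/3T3 (33.3%) and 1 was lower (11.1%), beside the same shares of all genes, 22.8% and 21.7%. Ncor1 was at 1042 CPM in mESCs and 303 CPM in NIH/3T3, and Suds3, a Sin3 subunit, was at 23.5 and 65.7 CPM.

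Partners of Mga and factors of Myc protein turnover were counted in the same way. Of 7 partners of the Mga complex, 2 were at least 2-fold higher in mESCs than in NIH/3T3 (28.6%, against 22.8% of all genes). The number lower there was 0, against 21.7% of all genes. In mESCs, 1 was higher than in N2a and 0 were lower, against 21% and 22.3% of all genes. In N2a, 2 were also higher than in NIH/3T3 and 0 were lower, against 20% and 18.5%. The ratio of mESCs was above 1 for 7 of 7 against NIH/3T3 and for 4 of 7 against N2a. Among all genes tested, it was above 1 for 5985 of 12067 and 5899 of 12245. E2f6, a repressive E2F of that complex, was near 0 in NIH/3T3 with 0.171 CPM, against 13.0 CPM in N2a and 17.5 CPM in mESCs. Of 12 genes that control the stability of Myc protein, 3 were higher in mESCs than in NIH/3T3 (25.0%, against 22.8% of all genes). The number lower there was 0, against 21.7% of all genes. In mESCs, 2 were higher than in N2a and 0 were lower, against 21% and 22.3% of all genes. Those higher than in NIH/3T3 included the deubiquitinase gene Usp28, with 42.8 CPM in N2a, 82.9 CPM in mESCs and 19.9 CPM in NIH/3T3. The median log2 ratio of the list was 0.34 against NIH/3T3 and 0.17 against N2a, beside -0.01 and -0.05 for all genes tested. The shares of both lists that were higher against NIH/3T3 were thus near that of all genes. Protein was not measured.

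The genes most like Myc and Mycn across the 3 lines were found by the shares of their summed CPM that fell to each line, among genes with a summed CPM within 2-fold. For Myc these were Bin1, Hmgn3 and Pea15a, whose shares differed from those of Myc by at most 0.25, 0.92 and 2.0 percentage points, among 4679 candidates. Bin1, which encodes a membrane-bending protein, was at 76.7 CPM in N2a, 5.52 CPM in mESCs and 95.5 CPM in NIH/3T3. For Mycn these were B830012L14Rik, Lyn and Sfmbt1, at most 0.37, 0.41 and 0.63 points apart, among 4358 candidates. With 3 points per gene, many genes can match by chance.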

How the data were processed

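RNA was measured in single cells of 3 mouse cell lines by CapSeq, in 1 library. Per the study's methods, the authors trimmed the TSO, aligned the reads with STARsolo to GRCm39 with GENCODE M30, and deposited raw UMI counts in 4 matrices of genes by barcodes, neither normalized nor filtered for cells. The STARsolo feature mode, the use of strand and the allowance for BC1 mismatches are not given in the sources used here. The pooled matrix holds the same reads and was used only as an alternative. Its 3 sample-resolved counterparts gave all values.

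Cells were kept at 1000 UMIs or more, of which no more than 20% were mitochondrial. Doublets were not called. UMIs were summed per line and expressed as CPM, and the floor for a count of 0 was 3 counts, or 0.167, 0.256 and 0.243 CPM in N2a, NIH/3T3 and mESCs. Gene positions and transcript lengths came from GENCODE M39 on GRCm39, and promoters from RefSeq on GRCm38.p6. With 1 sample per line, no p-value was computed. The genes named were the members, the 3 extended network genes, and in other lists the 2 genes with the largest and the 2 with the smallest ratio to NIH/3T3, with the 3 genes most like Myc and Mycn. Zfp42, Col1a2 and Hand2 served as background references. The members and lists were chosen with earlier results of these data known. Of the listed genes, 3 were absent from the files. Scripts ran in Python 3.11.15 with numpy 2.4.6, scipy 1.17.1 and pandas 2.3.3, and were tested on simulated data.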

Additional observations from a re-analysis of the deposited data

How the results depend on the processing

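With 1 sample per line in 1 pooled library, the intervals cover counting error only, and variation between cultures was not measured. The levels of the 10 members in 3 lines were recomputed with all barcodes, with the cell calling rule of STARsolo, with at least 2000 UMIs, without the 5% of cells with the most UMIs, as a mean over cells, and from the pooled matrix, and 0 of 30 levels left its interval in these 6 settings. With each cell thinned to 1000 UMIs, 18 of 30 did, and 14 of 30 without mitochondrial and ribosomal genes in the total. Thinned levels rest on fewer UMIs, so their own counting error is larger than the intervals they were held against. Leaving those genes out of the total raises every level of a line by the same factor. The counts of members at least 2-fold apart stayed within 1.5 times, and the medians of the target genes within 0.1 (log2), under the alternatives run.

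The Myc share was 93.3% in N2a and 8.55% in mESCs per kilobase of transcript, and 100.0% in NIH/3T3 and 8.22% in mESCs with thinned cells. The remaining alternatives were chosen after seeing the data. The paralog sum of mESCs was 0.747 of that of N2a and 0.648 of that of NIH/3T3 per kilobase, and with thinned cells the ratio was 0.912 for mESCs over N2a and 1.00 for N2a over NIH/3T3. The ratio of the Mxd sum to the paralog sum was 0.938, 0.897 and 0.682 per kilobase in N2a, NIH/3T3 and mESCs, and 1.38 in N2a and 1.16 in NIH/3T3 with thinned cells. With thinned cells, the ratio of the highest to the lowest G2/M tercile was 3.50, 2.0 and 6.01 for Mxd3 and 0.270, 0.667 and 0.200 for Mxd4, in N2a, NIH/3T3 and mESCs. The thinned cells with a UMI numbered 31, 57 and 9 for Mxd3 and 46, 11 and 12 for Mxd4, in the same order. In each case the cause was not tested. No paired analysis was possible because each line had 1 sample.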

Other observations

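A small group of mESCs carried transcripts of the 2-cell-like state, which resembles the 2-cell embryo. Cells were taken into this group at 3 or more UMIs of the 6 list genes found, such as Zscan4c and Zscan4d, which gave 73 of 2137 mESCs. Near this limit, 22 cells held 2 UMIs and 11 cells held 3. Median depth was 4235 UMIs in these cells and 4822 in the other 2064. Myc was at 16.3 CPM in the 2-cell-like cells (6 UMIs, 5.97 to 35.4) and at 3.76 CPM in the others (2.75 to 5.04). Mycn was at 32.5 CPM (12 UMIs, 16.8 to 56.8) and 58.7 CPM (54.4 to 63.2). Mxi1 was at 10.8 CPM (4 UMIs, 2.96 to 27.8) and 44.7 CPM (41.0 to 48.6). Mycl had 0 UMIs, which allows up to 8.13 CPM, so that its 6.27 CPM in the other cells was not distinguishable at this depth. The pairs of intervals did not overlap for Myc and for Mxi1, and each rests on 6 UMIs or fewer in the 2-cell-like cells of 1 culture.

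Along the share of UMIs in 30 S phase genes, Mxd4 was also higher in the lowest tercile of N2a, 1.95-fold (1.53 to 2.50), and the intervals in NIH/3T3 and mESCs included 1. Mxd3 was 1.57-fold higher in the highest S phase tercile of N2a (1.05 to 2.34). For Mxd3 the other lines gave highest-to-lowest ratios of 0.795 (NIH/3T3, 0.586 to 1.08) and 0.963 (mESCs, 0.505 to 1.84). Both of these intervals included 1. Mxd1 was 1.46-fold higher in the highest S phase tercile of N2a (1.07 to 2.00) and 2.12-fold lower in that of mESCs (1.23 to 3.78), and the difference between the lines was not tested.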
